A study of Mus musculus with 6 samples.

Results

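Transcripts of integrin subunits and of the adaptor proteins that tie integrins to actin were measured in cardiac fibroblasts isolated from the left ventricle of mice on Day 7 after myocardial infarction (MI). The members were chosen by gene symbol: every α and β integrin gene with a standard symbol, and 10 adaptor genes (Tln1, Tln2, Fermt2, Fermt3, Ilk, Lims1, Parva, Vcl, Pxn and Zyx). This rule found 37 of the 34745 genes in the table, with 36 distinct symbols, since the symbol Itgam stood on 2 rows. RNA-seq compared 3 libraries labelled KO with 3 libraries labelled WT. The KO mice carried a deletion in Kdm5b, which encodes a histone H3K4 demethylase; it was made with CRISPR/Cas9 and no driver limits it to a cell type. The WT mice were littermates. Both groups were on a C57BL/6 background, had the infarction, and were 8 to 10 weeks old. The labels name no separate animals, so the p-values measure only the spread between these libraries.

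Integrins are receptors made of 1 α and 1 β subunit, and the pair decides which matrix protein or cell surface partner is bound. Talins and kindlins bind the β tail and switch the receptor on, the complex of ILK, PINCH (Lims1) and parvin links the tail to actin, and vinculin, paxillin and zyxin are recruited as the adhesion matures. Cardiac fibroblasts use α1β1, α11β1 and α5β1 to hold collagen and fibronectin, and αv integrins to release latent TGF-β. Endothelial cells are known for αvβ3, α6β1 and α2β1, platelets for αIIbβ3, and leukocytes for the β2 and β7 integrins.

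The libraries held 12025403 to 15329427 counts on genes, so a floor of 3 counts stood for 0.196 to 0.249 CPM (counts scaled to the depth of the library). Kdm5b itself stood at 98.0, 107 and 105 CPM under the KO label and 108, 128 and 123 under the WT label. Its log2 fold change of -0.22 missed the threshold (adjusted p = 0.0574, edgeR). It passed without WT replicate 1 (edgeR adjusted p = 0.0188), but not when any other single library was left out (0.0780 to 0.175). These counts cover the whole gene, including the part outside the deletion, so they do not check the labels. By Q-PCR, the paper reports barely any Kdm5b mRNA in cardiac fibroblasts of KO mice, a loss that these counts do not show. The reason for this difference was not tested. Fibroblast markers were abundant in all 6 libraries, with a summed level of 2606 to 3023 FPKM (fragments per kilobase of gene, scaled to the depth of the library) under the KO label and 3550 to 3833 under the WT label. Markers of macrophages, cardiomyocytes and mesothelial cells were present as well.

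The family was read at very different levels, as the plot of every library shows. Itgb1, the shared partner of most α subunits, was the most abundant member at 205, 214 and 208 FPKM in the KO libraries and 234, 235 and 234 in the WT libraries. Itga5, the fibronectin receptor subunit, followed at 139, 138 and 141 FPKM against 123, 126 and 129. Itgb5, a partner of αv, came next at 84.9, 92.4 and 84.7 FPKM against 116, 121 and 114. The KO libraries therefore lay below the WT libraries for Itgb1 and Itgb5 and above them for Itga5, with no overlap in any of these genes. Vcl (vinculin), Tln1 (talin 1) and Fermt2 (kindlin 2) were the most abundant adaptors, with mean levels of 68.8, 67.5 and 52.5 FPKM over the 6 libraries. At the other end, Itgae had at most 1 count in any library, Itgad had 0 counts in all 6, which allows up to 3 counts in each, and Itgb6, an epithelial subunit, had 3 to 14 counts. These 3 genes did not pass the filter on low counts, and 34 members were tested.

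**Figure D1:**
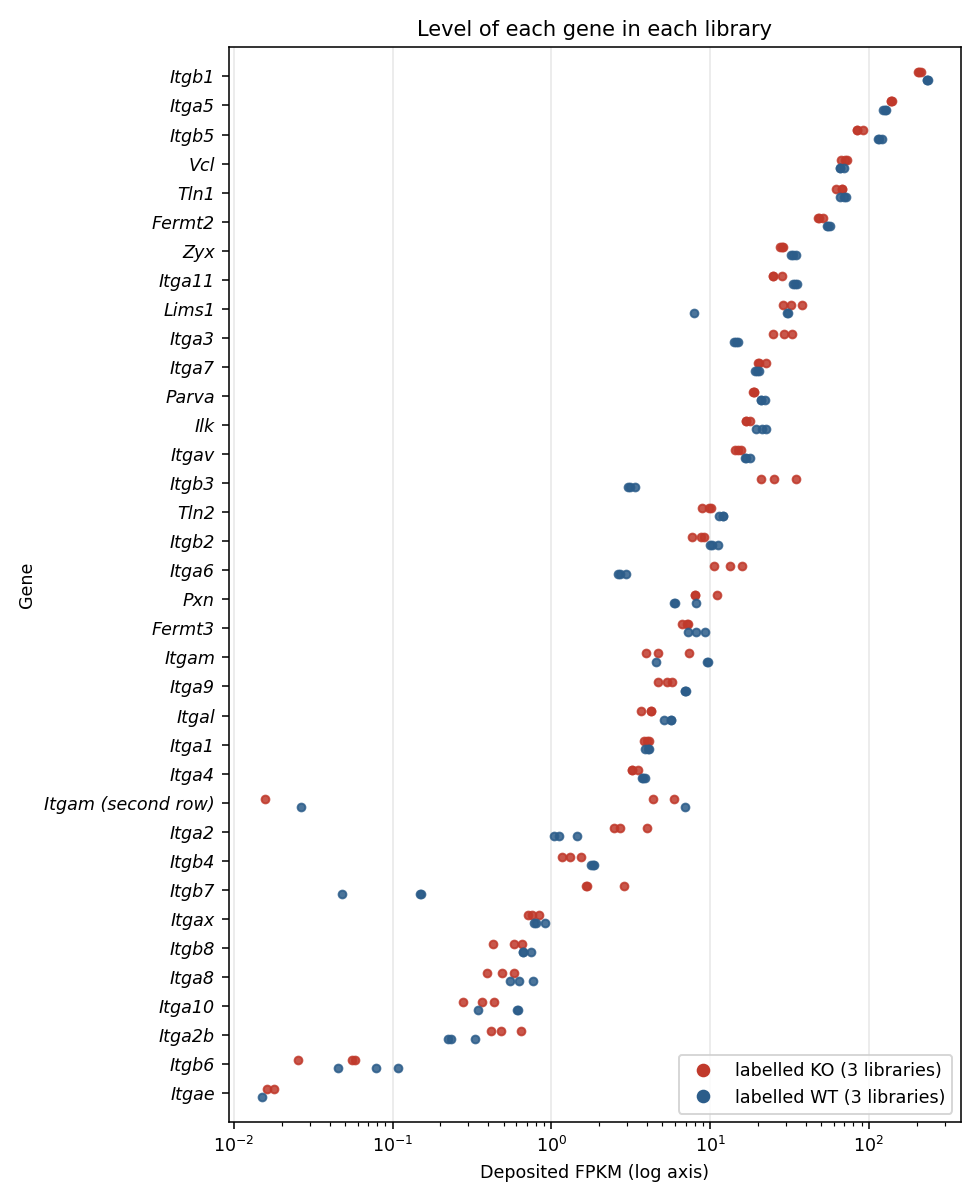
Deposited FPKM (log axis) of each gene in each of the 6 libraries, ordered by mean level. Red points are the 3 libraries labelled KO and blue points the 3 labelled WT, and libraries at 0 are not drawn (Itgad, at 0 in all 6, is left out). Itgb3, Itga6 and Itgb7 stand out by the gap between the colours, and the second Itgam row and Lims1 by single libraries that lie far from the others of their label.

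Of the 34 tested members, 6 were higher in the KO libraries, 14 were lower and 14 were not called at an adjusted p under 0.05 (edgeR). Over all 14084 genes tested, 30.2% were called, 17.7% as higher and 12.5% as lower. The count of higher members was thus close to that background, and lower calls made up the larger share among the members. In normalized CPM, every KO library lay above every WT library in 3474 of the 14084 genes and below in 3149. Among the 34 tested members these counts were 7 and 16. A lack of overlap between the labels was therefore common in the whole table. The 2 directions differed in size. The higher members had log2 fold changes of 0.93 to 4.08, whereas the 14 lower members lay between -0.20 and -0.47. The whole table had the same asymmetry, with 1364 of 2488 higher genes but 194 of 1760 lower genes changed by more than 1.5-fold. The median over the members was -0.22, against -0.02 over all genes tested. When the libraries were scaled to cardiomyocyte and macrophage markers, the median of all genes moved up by 0.40. These markers were themselves lower under the KO label (medians of -0.42 and -0.41), so the scaling raises every gene by a similar amount. The 6 higher members could therefore only stay higher. Of the 14 lower members, 9 turned to the other direction, and 16 members were called higher and 0 lower. Itga1 (0.36) and Itga7 (0.45) were among those 16. The scaling takes those cells to be equally common under both labels, which was not tested.

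**Figure D2:**
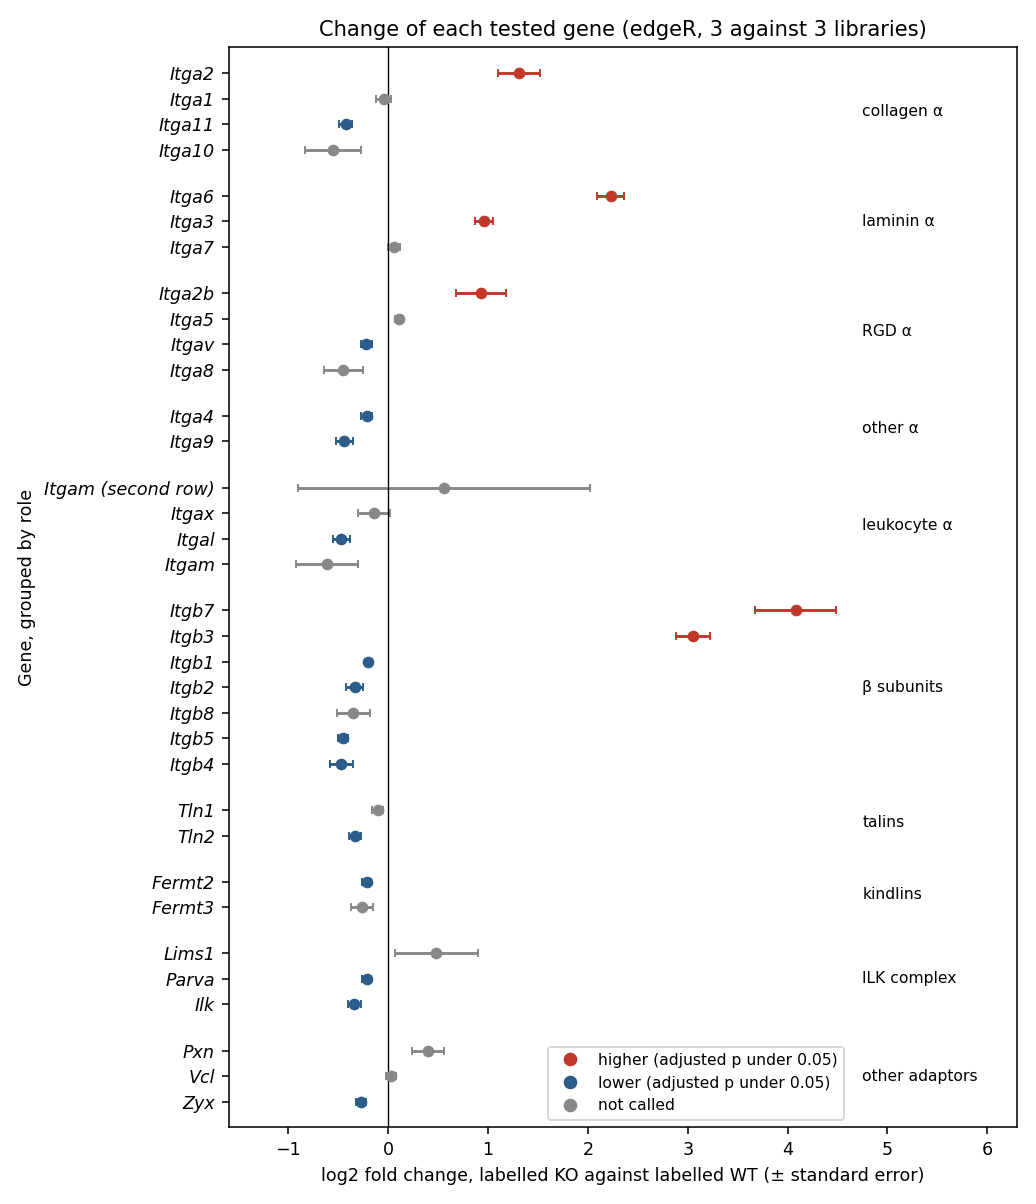
Log2 fold change (± standard error) of each tested gene between 3 libraries labelled KO and 3 labelled WT, grouped by role; red and blue mark genes higher or lower at an adjusted p under 0.05 (edgeR), grey those not called. The 6 red genes lie between 0.93 and 4.08, and all 14 blue genes between -0.20 and -0.47, of which 9 change direction when the libraries are scaled to cardiomyocyte and macrophage markers.

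Among the β subunits, Itgb3 and Itgb7 rose and 4 others fell. Itgb3, which pairs with αv or αIIb and binds RGD ligands such as vitronectin and fibrinogen, was at 34.6, 21.1 and 25.4 FPKM in the KO libraries and 3.35, 3.04 and 3.13 in the WT libraries. The lowest KO library was 6.20 times the highest WT library in normalized CPM. The fitted change was 8.30-fold (log2 fold change 3.05, SE 0.17, adjusted p = 1.2e-05, edgeR). Itgb7, the partner of α4 and αE on lymphocytes and mast cells, had 96, 61 and 72 counts under the KO label and 6, 2 and 6 under the WT label. It was the member with the largest change, at 16.9-fold (log2 fold change 4.08, SE 0.40, adjusted p = 2.4e-04, edgeR), but its level of 2.06 FPKM in the KO libraries was below that of Itgb3 in every KO library. On the log2(FPKM + 1) scale, which understates the change of low genes, the Itgb7 difference was 1.44 and kept its call. Its known partners did not rise with it: Itgae was at the floor, and Itga4 was at 3.50, 3.24 and 3.23 FPKM against 3.75, 3.70 and 3.86.

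The 4 β subunits that fell changed far less. Itgb5 had a log2 fold change of -0.45 (SE 0.05), Itgb1 of -0.20 (SE 0.04), Itgb2, the leukocyte β subunit, of -0.34 (SE 0.08), and Itgb4, the β partner of α6 in hemidesmosomes, of -0.47 (SE 0.12). Their adjusted p-values ranged from 4.8e-04 for Itgb5 to 0.0177 for Itgb2 (edgeR), and every KO library lay below every WT library for each. The calls of Itgb2 and Itgb4 depended on single libraries: the adjusted p was 0.0667 for Itgb2 without WT replicate 3 and 0.0513 for Itgb4 without KO replicate 1. Under the scaling to cardiomyocyte and macrophage markers, Itgb1 stood at 0.20 and Itgb2 at 0.061, that is, in the other direction. Itgb8, another activator of latent TGF-β, was not called at -0.35 (SE 0.17; -0.19 without KO replicate 2), with 77 to 122 counts in the KO libraries and 129 to 151 in the WT libraries.

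Of the 3 laminin-binding α subunits, Itga6 and Itga3 rose and Itga7 was not called. Itga6 was at 16.0, 10.6 and 13.3 FPKM in the KO libraries and 2.63, 2.96 and 2.70 in the WT libraries. Itga3 was at 32.8, 24.9 and 29.2 FPKM against 14.2, 14.6 and 14.9. Both genes rose without overlap between the labels, Itga6 by 4.68-fold (log2 fold change 2.23, SE 0.14, adjusted p = 2.1e-05) and Itga3 by 1.94-fold (log2 fold change 0.96, SE 0.09, adjusted p = 1.8e-04, edgeR). Itga7, the laminin receptor subunit of muscle and mural cells, was at 20.1, 22.5 and 20.4 FPKM against 19.3, 19.7 and 20.2, with overlap between the labels. Itga6 therefore moved away from its hemidesmosome partner Itgb4: the ratio of their FPKM was 12.2, 9.04 and 8.67 in the KO libraries and 1.43, 1.63 and 1.52 in the WT libraries.

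Of the collagen-binding subunits, Itga2 rose and Itga11 fell. Itga2, known from platelets, endothelium and epithelium, had 203, 139 and 174 counts in the KO libraries and 68, 65 and 87 in the WT libraries. The groups did not overlap, and the change was 2.48-fold (log2 fold change 1.31, SE 0.22, adjusted p = 0.00274, edgeR). Itga11, the collagen receptor subunit of fibroblasts and the most abundant of the 4, was at 24.9, 28.4 and 24.8 FPKM against 35.2, 34.2 and 33.3, a log2 fold change of -0.43 (SE 0.07, adjusted p = 0.00193, edgeR). Itga1 was at 3.83 to 4.14 FPKM in the KO libraries and 3.90 to 4.11 in the WT libraries, so its levels overlapped throughout. Itga1 and Itga2 lie only 26.0 kb apart on chromosome 13, and their log2 fold changes were -0.04 and 1.31. Itga1 overlaps Pelo on the same strand, which held 271 to 338 counts against 290 to 380 for Itga1, so reads of the 2 may have been divided between them. Itga10 was rare, with 24 to 48 counts against 35 to 65, and was not called; it overlaps a gene model on the same strand, so its reads may have been divided between the 2.

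Among the subunits that bind RGD ligands, Itga5 kept its place as the dominant α gene. Its log2 fold change was 0.11 (SE 0.04, adjusted p = 0.0688, edgeR), and the call changed with the scaling, at 0.14 (adjusted p = 0.0246) when only library size was used and 0.51 (adjusted p = 1.2e-04) under the scaling to cardiomyocyte and macrophage markers. Itgav was at 14.3 to 15.6 FPKM in the KO libraries and 16.5 to 17.7 in the WT libraries, a log2 fold change of -0.22 (SE 0.05, adjusted p = 0.0151, edgeR) that was not called without WT replicate 3 (adjusted p = 0.0563) and turned to 0.18 under the scaling to cardiomyocyte and macrophage markers (adjusted p = 0.0337). The ratio of the partners does not depend on the scaling. The ratio of Itgb3 to Itgav in FPKM was 2.41, 1.40 and 1.63 in the KO libraries and 0.202, 0.180 and 0.176 in the WT libraries, while the ratio of Itgb5 to Itgav was 5.42 to 6.14 against 6.44 to 7.17. Itga2b, the other partner of β3 and a defining gene of megakaryocytes, had 63, 45 and 60 counts against 26, 40 and 27. It was called as higher at 1.90-fold (log2 fold change 0.93, SE 0.25, adjusted p = 0.0229, edgeR), with no overlap, but lost the call in 4 of the 6 fits that left out a library, where the adjusted p was 0.0712 without KO replicate 1, 0.0533 without KO replicate 3, 0.0781 without WT replicate 1 and 0.0747 without WT replicate 3. Itga8, the nephronectin receptor subunit, had 59 to 68 counts against 79 to 107, overlapped between the labels in normalized CPM and was not called.

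Of the α subunits with other ligands, Itga9, which binds tenascin-C and osteopontin, fell with a log2 fold change of -0.44 (SE 0.08, adjusted p = 0.00508, edgeR). Itga4, a receptor subunit for VCAM-1 and fibronectin, was called at -0.22 (SE 0.06, adjusted p = 0.0243, edgeR), but that call was lost with DESeq2, in both limma fits and in 5 of the 6 fits that left out a library (adjusted p from 0.0600 to 0.0917 without KO replicate 2, KO replicate 3 or any WT replicate), and it turned to 0.18 under the scaling to cardiomyocyte and macrophage markers (adjusted p = 0.0652). The leukocyte subunit Itgal (LFA-1) fell by 0.47 on the log2 scale (SE 0.08, adjusted p = 0.00361, edgeR). Itgax, known from dendritic cells and macrophages, was not called, with 48 to 68 counts against 60 to 70.

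Itgam, the α subunit of Mac-1, was split between 2 overlapping gene models on chromosome 7 (mm10, 128062640 to 128118491 and 128062683 to 128128160, both on the plus strand). The first row held 634, 448 and 438 counts in the KO libraries and 472, 1024 and 993 in the WT libraries. The second held 1, 305 and 481 counts against 530, 0 and 2. The second row took 40.5% of the reads of both in KO replicate 2, 52.3% in KO replicate 3 and 52.9% in WT replicate 1, and at most 0.201% in the other 3 libraries, so the division of reads did not follow the labels. Neither row was called alone, with log2 fold changes of -0.61 (adjusted p = 0.171) and 0.56 (adjusted p = 0.805, edgeR), and without WT replicate 1 both were called in opposite directions, the first at -0.90 (adjusted p = 0.0282) and the second as higher (adjusted p = 0.0466), in a fit against 0 and 2 counts. Summed over both rows, a choice made after seeing the data, Itgam had 51.9, 56.4 and 59.2 normalized CPM in the KO libraries and 70.1, 69.8 and 70.7 in the WT libraries. These sums did not overlap, and the log2 fold change was -0.33 (SE 0.06, adjusted p = 0.00566, edgeR), near those of Itgb2 and Itgal.

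**Figure D3:**
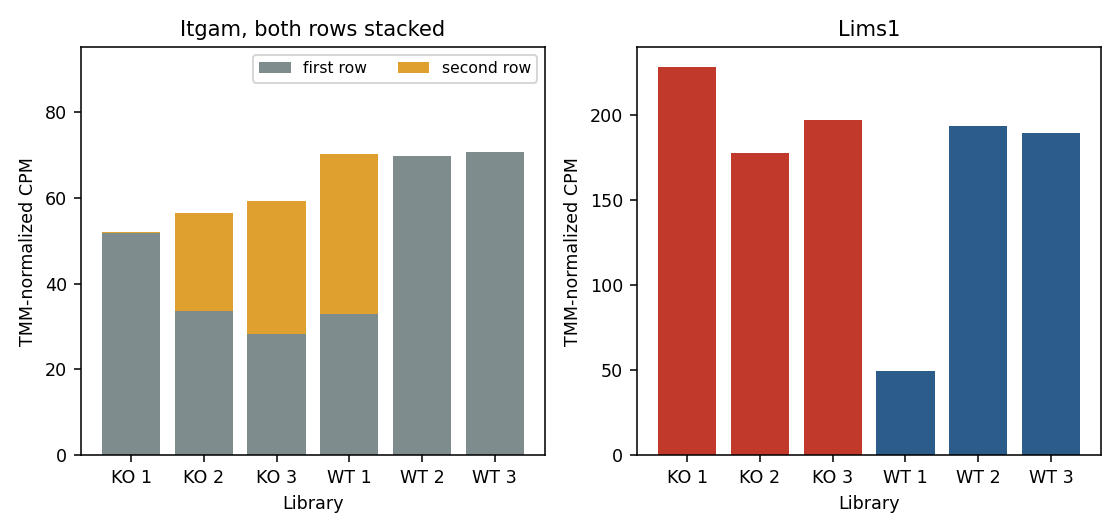
Normalized CPM in each library for Itgam (left; first and second row of that symbol, stacked) and for Lims1 (right; red labelled KO, blue labelled WT). The stacked Itgam bars reach 51.9 to 59.2 in the KO libraries and 69.8 to 70.7 in the WT libraries, and WT replicate 1 stands apart for Lims1.

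Of the 10 adaptors 0 were called as higher and 5 as lower, against 17.7% and 12.5% of all genes. Ilk, the scaffold of the complex named after it, had a log2 fold change of -0.34 (SE 0.06), Tln2 (talin 2) of -0.33 (SE 0.06), Zyx (zyxin) of -0.27 (SE 0.05), Fermt2 of -0.22 (SE 0.05) and Parva (α-parvin) of -0.21 (SE 0.05). All 5 passed without overlap (adjusted p from 0.00327 for Zyx to 0.0116 for Fermt2, edgeR), and all 5 stood between 0.060 and 0.18 under the scaling to cardiomyocyte and macrophage markers. Ilk overlaps Taf10 and Rrp8 on the other strand, and since it is not known whether the counting used strand, its reads may include theirs.

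Of the most abundant adaptors, Vcl and Tln1 were not called; under the scaling to cardiomyocyte and macrophage markers both were called higher, at 0.43 and 0.29 (adjusted p = 4.8e-04 and 0.00278), as were Pxn at 0.81, Fermt2 at 0.18 and Parva at 0.18. Tln1 was at 62.1, 67.7 and 67.6 FPKM in the KO libraries and 65.7, 70.0 and 71.9 in the WT libraries. Vcl was at 66.7, 71.3 and 73.0 FPKM against 65.8, 70.2 and 66.1. In both genes the labels overlapped. Fermt2 was at 47.7, 51.4 and 48.3 FPKM against 54.9, 57.0 and 55.7. Fermt3 (kindlin 3), the form of blood cells, was at 6.66 to 7.23 FPKM against 7.26 to 9.23. It was not called (log2 fold change -0.26, adjusted p = 0.102, edgeR), and stood at -0.35 without WT replicate 1 (adjusted p = 0.0487) and at -0.17 without WT replicate 3 (adjusted p = 0.285). Pxn (paxillin) was at 11.1, 8.02 and 8.03 FPKM against 5.90, 5.98 and 8.17, a log2 fold change of 0.40 (SE 0.16, adjusted p = 0.0944, edgeR) in which WT replicate 3 lay among the KO libraries. Without that replicate it was 0.57 (adjusted p = 0.0295), but without KO replicate 1, the highest library, it was 0.24 (adjusted p = 0.253). DESeq2 on all libraries called it (adjusted p = 0.0315).

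Lims1 had the widest spread of the adaptors. It held 2794, 2372 and 3058 counts in the KO libraries and 706, 2841 and 2670 in the WT libraries, and the low value in WT replicate 1 alone set the fitted log2 fold change of 0.48 (SE 0.42, adjusted p = 0.422, edgeR). Without WT replicate 1 the log2 fold change was 0.07 (SE 0.10, adjusted p = 0.669). The reason for the low count in that library was not tested.

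The mixture of subunits shifted within each family. Itga5 made up 50.8% ± 0.48 (SD, n = 3) of the summed α FPKM in the KO libraries and 50.8% ± 0.63 in the WT libraries, and the exact two-sided permutation test gave p = 1. Itga11 made up 9.51% ± 0.88 against 13.8% ± 0.51, Itga3 10.6% ± 1.31 against 5.86% ± 0.09 and Itga6 4.84% ± 0.92 against 1.11% ± 0.07. Among β genes, Itgb1 made up 62.2% ± 1.26 against 63.8% ± 0.43, Itgb5 26.0% ± 1.03 against 31.8% ± 0.64 and Itgb3 8.04% ± 2.06 against 0.863% ± 0.049. The Itgb1 difference was -1.52 percentage points, -0.79 without KO replicate 1 and -4.59 when counts took the place of FPKM. With counts the difference also went from 3.72 to 7.60 points for Itga6 and from 7.18 to 11.0 for Itgb3. Apart from Itga5, these shares did not overlap between the labels, and each reached the exact two-sided permutation p of 0.1 that is the smallest 3 against 3 libraries can give. Shares within a family do not depend on how the libraries are scaled to each other. The ratio of Itgb3 to Itgb5 was 0.407, 0.228 and 0.300 under the KO label and 0.0290, 0.0252 and 0.0274 under the WT label.

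**Figure D4:**
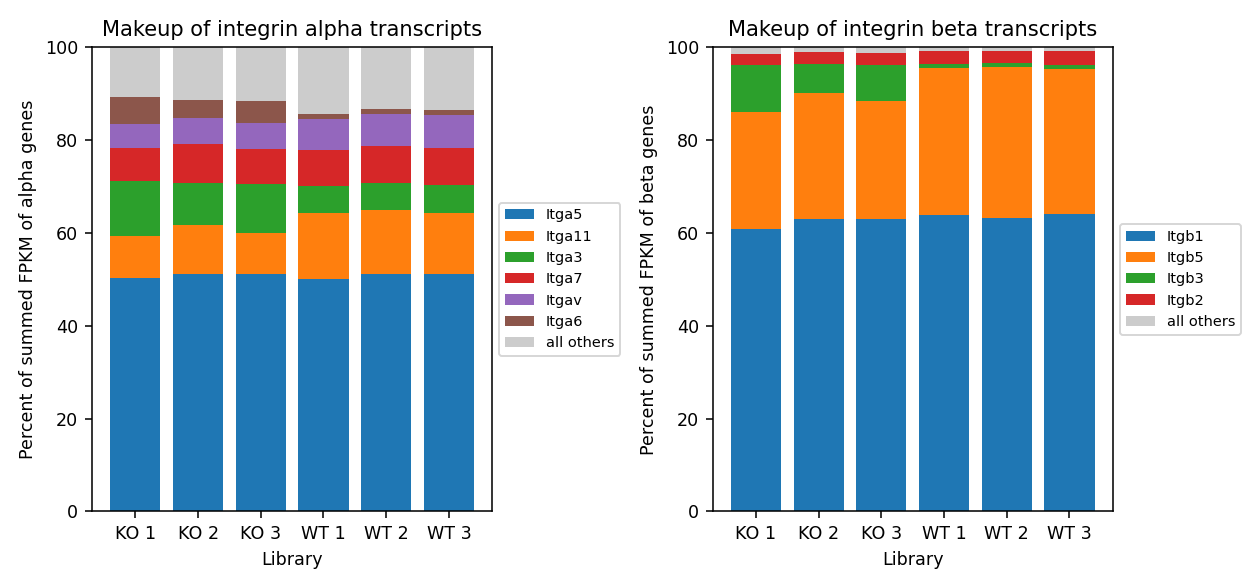
Percent of the summed FPKM of all α genes (left) and all β genes (right) held by the named subunits in each library; the bars of a library add up to 100. Itgb3 widens from 0.863% to 8.04% on average and Itga6 from 1.11% to 4.84% in the KO libraries, while Itga5 stays near 51% in all 6. Taken from counts, the gain is 11.0 points for Itgb3 and 7.60 for Itga6.

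In each of the 6 higher members, KO replicate 1 had the highest normalized CPM of the KO libraries and KO replicate 2 the lowest. How many of all genes follow this order was not counted, so it cannot be read as particular to these members. Endothelial markers moved in the same order: the summed level of 7 of them (Pecam1, Cdh5, Kdr, Tie1, Tek, Emcn and Erg) was 288, 196 and 232 FPKM in the KO libraries and 39.1, 40.2 and 38.7 in the WT libraries, and 7 of 7 were called as higher. Of 5 platelet and megakaryocyte markers, Pf4 (log2 fold change 2.87) and Gp1ba (20, 11 and 15 counts against 0 in every WT library) were higher, Ppbp was not called, and Gp9 and Gp6 were too low to test, at most 4 counts and 0 counts. The summed level of these 5 was 22.0 to 31.1 FPKM in the KO libraries and at most 5.23 in the WT libraries. The T cell receptor genes Cd3e, Cd3d and Cd3g had 0 counts in every library. Of 5 dendritic cell markers only Zbtb46 could be tested, and it was higher (log2 fold change 0.49). Of 6 mast cell markers Tpsab1 was higher, with 77 to 111 counts against 0 in every WT library, whereas Cpa3 and Tpsb2 were at 0 throughout, Cma1 and Ms4a2 had at most 3 counts in any library, and Mcpt4 had 5 counts in WT replicate 1 and 0 elsewhere. Of 5 neutrophil markers, S100a8 (74, 53 and 63 counts against 16, 3 and 6) and S100a9 were higher, with log2 fold changes of 2.99 and 1.95, Csf3r was not called, and Retnlg and Cxcr2 were too low to test. In bulk RNA, more cells of a type and more RNA per cell cannot be told apart, and the part of these cell types in the rise of Itgb3, Itgb7, Itga6, Itga3, Itga2 and Itga2b was not tested.

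Markers of several cell types were lower as well. The 14 lower members lay between -0.20 and -0.47 on the log2 scale and the 7 fibroblast markers between -0.32 and -0.48, so that the least changed members, such as Itgb1 and Parva, fell less than any fibroblast marker. The median log2 fold change was -0.42 for the fibroblast markers, all 7 called lower, -0.41 for 8 macrophage markers, of which 6 were lower and Cd68 was higher (1.38), -0.42 for 7 cardiomyocyte markers, of which 5 were lower, and -0.41 for 4 mesothelial markers, all 4 lower. Of the 3 pan-leukocyte markers, 2 were lower, with a median of -0.37. Of 5 tested mural cell markers, 2 were lower and Abcc9 was higher (0.84), with a median of -0.40. Their part in the lower members was not tested either. None of the 14 lower members had a change above 1.5-fold.

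Promoter sequence was available for 25 of the 36 symbols, as 30 promoters (RefSeq, GRCm38.p6, the same coordinates as mm10; 250 bases before to 50 after each start), and Itgb3 and Itga6 were not among them. Of the 6 higher members, the 4 with an entry are shown. Each is written 5′ to 3′ on the minus strand, on which all 4 genes lie. Capitals mark GGAAG, the core bound by ETS factors, or its reverse complement CTTCC; the AP-1 motif TGANTCA was searched as well and has no match in the 4 windows shown. Of the other motifs searched, the GATA motif AGATAA had no match in them, and the GC box GGGCGG, not marked in capitals, had 3 in Itga3 and 1 in Itga2. The second start of Itga3 (chr11:95069149-95069448), which is not shown, held 1 match to TGANTCA and 1 to GGAAG. Itgb7 lies at chr15:102231886-102232185, Itga2b at chr11:102469834-102470133, Itga3 at chr11:95076665-95076964 (the first of its 2 starts) and Itga2 at chr13:114932051-114932350.
Itgb7: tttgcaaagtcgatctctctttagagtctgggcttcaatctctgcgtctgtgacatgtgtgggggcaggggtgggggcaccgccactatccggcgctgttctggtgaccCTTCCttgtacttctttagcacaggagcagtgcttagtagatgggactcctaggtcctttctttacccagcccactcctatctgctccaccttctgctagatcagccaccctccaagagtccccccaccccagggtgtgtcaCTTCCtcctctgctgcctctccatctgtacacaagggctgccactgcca
Itga2b: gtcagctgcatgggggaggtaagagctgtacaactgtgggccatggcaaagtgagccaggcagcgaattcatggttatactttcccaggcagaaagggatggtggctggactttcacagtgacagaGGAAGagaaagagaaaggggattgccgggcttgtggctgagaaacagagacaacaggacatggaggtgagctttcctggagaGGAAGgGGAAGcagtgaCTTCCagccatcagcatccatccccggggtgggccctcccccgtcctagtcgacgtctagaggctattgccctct
Itga3: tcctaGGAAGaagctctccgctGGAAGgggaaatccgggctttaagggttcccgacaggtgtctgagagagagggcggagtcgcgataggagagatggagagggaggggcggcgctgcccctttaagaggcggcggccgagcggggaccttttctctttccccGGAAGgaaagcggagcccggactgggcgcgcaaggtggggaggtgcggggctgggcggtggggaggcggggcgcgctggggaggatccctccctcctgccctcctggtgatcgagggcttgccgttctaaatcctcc
Itga2: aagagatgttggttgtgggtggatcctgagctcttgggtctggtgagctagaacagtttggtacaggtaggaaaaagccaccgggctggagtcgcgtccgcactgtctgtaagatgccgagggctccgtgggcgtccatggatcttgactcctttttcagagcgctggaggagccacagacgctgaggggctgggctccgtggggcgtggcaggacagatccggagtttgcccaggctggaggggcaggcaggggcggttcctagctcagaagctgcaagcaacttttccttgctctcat

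The Itga2b window held 4 matches to GGAAG on both strands together, the first start of Itga3 held 3, Itgb7 held 2 and Itga2 held 0. Over all member promoters 24 of 30 had at least 1 match, and 71.4% of 32851 promoters of the same length did. The AP-1 motif was in 4 of the 30 and in 7.81% of all promoters; 35.7% of all promoters held a GC box and 11.2% the GATA motif. These matches are a description of the letters.

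The downstream partners of the adhesion were followed in a list of 40 genes of focal adhesion signaling and the actin link. In this list 9 were higher, 9 were lower and 22 were not called, and the median was 0.03 on the log2 scale. The background over the whole table was 17.7% higher and 12.5% lower, and the count of higher genes in the list was near that share. The lower count was 4 without KO replicate 1, KO replicate 3 or WT replicate 2 and 5 without WT replicate 3, and under the scaling to cardiomyocyte and macrophage markers 27 were higher and 0 lower. The higher genes were led by Parvb (β-parvin) at 1.57 (SE 0.16), Dab2, an endocytic adaptor of integrin tails, at 1.32 (SE 0.11), and Arhgef7 (β-PIX), a Rac exchange factor that binds GIT proteins, at 0.85 (SE 0.06). Among the lower were Nedd9, a scaffold of the Cas family, at -0.48 (SE 0.15), Tgfb1i1 (Hic-5), a paxillin relative, at -0.45 (SE 0.07) and Enah, which extends actin filaments, at -0.36 (SE 0.09); all 6 passed an adjusted p under 0.05 in edgeR. Nedd9 lost its call without KO replicate 3 or any 1 WT replicate (adjusted p up to 0.113), with library size only, in both limma fits and with a replicate block (0.0540 to 0.0633), and stood at -0.29 without KO replicate 1. Enah lost its call without KO replicate 1, KO replicate 2 or WT replicate 2 (adjusted p up to 0.0771) and in both limma fits (up to 0.0901), and turned to 0.044 under the marker scaling. Of the parvins, Parvb rose, Parva fell under the default scaling, and Parvg, at 0.58 (SE 0.28, adjusted p = 0.152, edgeR), was not called. Parvb was at 10.2 to 15 FPKM in the KO libraries and 3.42 to 4.78 in the WT libraries, while Parva was at 18.9, 18.7 and 19.0 against 21.0, 22.3 and 20.8. Under the scaling to cardiomyocyte and macrophage markers Parva stood at 0.18. Ptk2 (FAK), the main kinase of focal adhesions, was not called at 0.10 (SE 0.06, adjusted p = 0.221, edgeR), but was at 0.50 under the marker scaling (adjusted p = 8.8e-04).

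Ligands of the integrins were mostly lower. Of 25 tested ligand genes 18 were lower and 4 were higher (12.5% and 17.7% over all genes), with a median of -0.35 on the log2 scale; under the scaling to cardiomyocyte and macrophage markers none was called lower and 9 were higher. Cdh1 (E-cadherin, bound by αEβ7) fell by 0.65 on the log2 scale, Col1a1 by 0.44 and Postn (periostin) by 0.44. Col1a1 and Postn are also among the fibroblast markers above. The higher ligands were Icam2, a partner of LFA-1 known from endothelium, at 4.56 (SE 0.19), Madcam1, the addressin bound by α4β7, at 1.20 (SE 0.37), Lama5, the laminin chain bound by α3β1 and α6β1, at 0.62 (SE 0.06), and Tgfb1, whose latent form αv integrins bind, at 0.55 (SE 0.05). All 7 named ligands passed an adjusted p under 0.05 in edgeR, but Madcam1 lost its call in each of the 6 fits that left out a library (adjusted p 0.0513 to 0.11) and Cdh1 in the 4 without KO replicate 3 or any 1 WT replicate (up to 0.0937), and DESeq2 called neither (adjusted p 0.0537 for Madcam1 and 0.0825 for Cdh1). Icam2 was at 28.0, 18.1 and 23.0 FPKM in the KO libraries and 0.941, 0.846 and 1.07 in the WT libraries. Vtn (vitronectin), a ligand of αvβ3 and αvβ5, had 0 counts in all 6 libraries.

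**Figure D5:**
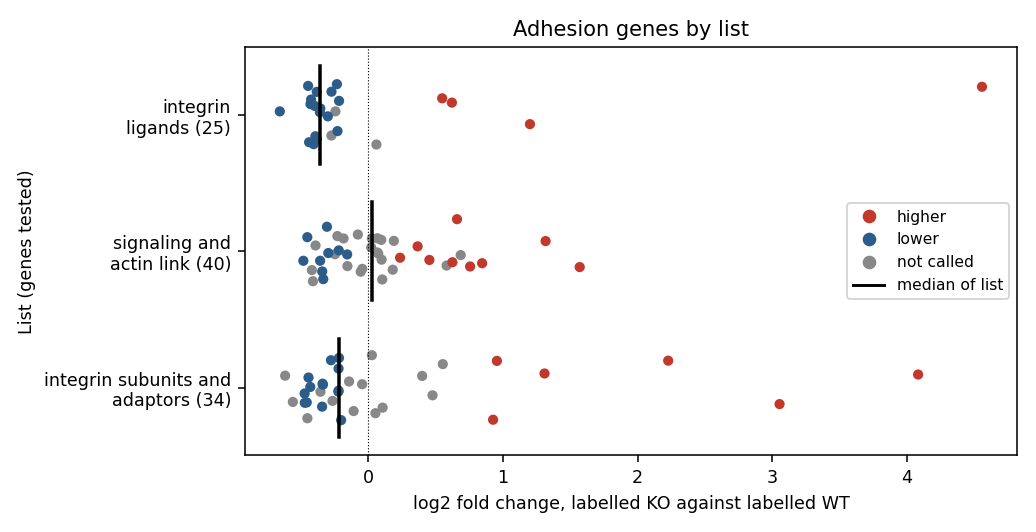
Log2 fold change of each tested gene in the 3 adhesion lists, with the list median as a black bar; red and blue mark genes higher or lower at an adjusted p under 0.05 (edgeR, 3 libraries a label), and the vertical offset within a list has no meaning. The medians are -0.22 for subunits and adaptors, 0.03 for signaling genes and -0.35 for ligands; scaling the libraries to cardiomyocyte and macrophage markers raises all genes by 0.40 and turns the first of these to 0.18.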

How the data were processed

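The authors aligned paired-end reads with HISAT2 (default settings, mm10) and deposited raw counts and FPKM for each gene and library. The counting tool, annotation release and strand setting are not given in the sources used here; the kit marks strand. Gene positions are those of the table. The members and gene lists were chosen with earlier results of these data known. Counts were tested in edgeR 4.0.16 (R 4.3.3; filterByExpr, TMM, quasi-likelihood test of the label, 14084 genes), with Benjamini-Hochberg adjustment over all genes tested; the SE is the absolute log2 fold change divided by the square root of F. FPKM served for levels, ratios and shares between genes, for marker sums and for the limma alternatives. Values per library were given for members called with an absolute log2 fold change of 0.5 or more, the 3 most abundant α, β and adaptor genes, and members with at most 3 counts in every library of a label; Itgam, Lims1, Pxn, Itga4, Itga7, Itgav and Parva were added after their values were seen. For the other 2 lists the 3 largest changes in each direction were named; Ptk2, Parvg, Vtn and the remaining higher ligand were added in the same way. Precision was limited by 3 libraries a label, with a biological coefficient of variation of 10.9%; counting floors cover counting error only. The code was tested on simulated counts. Alternatives were other filters and scalings, DESeq2 1.42.0, limma 3.58.1 on log2(FPKM + 1) and log2(FPKM + 0.1), a block for the replicate number, leaving out single libraries, a fold above 1.5, and, chosen after seeing the data, the sum of the 2 Itgam rows. The scaling to cardiomyocyte and macrophage markers sets their median ratio to 1 in every library.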

Additional observations from a re-analysis of the deposited data

How the results depend on the processing

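Of the 20 called members, 15 kept direction and call in every alternative except the scaling to cardiomyocyte and macrophage markers (marker scaling) and, for the lower ones, the demand for a fold above 1.5, which none of them met. Itga2b and Itga4 lost theirs in several settings, and Itgav, Itgb2 and Itgb4 without 1 library. Depth limits Itgae, Itgad and Itgb6, which were not tested, and Itga2b, Itgb7, Itga10 and Itgax, read with under 100 counts in every library. Under DESeq2, log2(FPKM + 1) and both other filters, 32 to 34 of the 34 tested members gave the same call.

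Marker scaling shifted all genes by 0.40 and reversed Itga1 (0.36), Itgav (0.18), Itga4 (0.18), Itgax (0.26), Itgb1 (0.20), Itgb2 (0.061), Itgb8 (0.052), Tln1 (0.29), Tln2 (0.064), Fermt2 (0.18), Fermt3 (0.14), Ilk (0.060), Parva (0.18), Zyx (0.12), Enah (0.044) and Kdm5b (0.18). It called 16 members higher and 0 lower, 8546 genes higher and 44 lower, 27 signaling genes higher and 0 lower, and 9 ligands higher and 0 lower. The member median was 0.18 with it, -0.18 with library size only and with limma on log2(FPKM + 0.1), -0.15 on log2(FPKM + 1), -0.26 with upper quartile scaling, and -0.23 to -0.18 when a library was left out. Upper quartile scaling gave -0.013 for Vcl and -0.26 for Kdm5b, which it called.

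With a fold above 1.5 in addition, 0 members, 194 genes, 0 signaling genes and 1 ligand were lower, and 1364 genes were higher. The count of lower signaling genes was 5 with library size only, 3 with limma at either pseudocount and 4 to 9 when a library was left out. Leaving out a library gave 1131 to 1614 lower genes in all, 11 to 15 lower members, -0.29 to -0.17 for Kdm5b and -0.094 to 7.85 for the second Itgam row, where the high value is a fit against 0 and 2 counts. Shares taken from counts in place of FPKM differed between the labels by 7.60 percentage points for Itga6, -4.59 for Itgb1 and 11.0 for Itgb3. A stricter fold lowers counts by construction. Leaving out a library also raised some counts, as with the 15 lower members without WT replicate 1. Apart from the stricter fold, the cause of the changes was not tested.

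The replicate numbers did not pair the libraries: deviations of same-numbered libraries correlated at 0.00897, 0.00945 and 0.0315 across genes. With a replicate block, 33 of 34 member calls were the same, Itga2b missed the threshold (adjusted p = 0.0543) and Kdm5b passed it (-0.21, adjusted p = 0.0270, edgeR).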
